A study of Arabidopsis thaliana with 12 samples.

Results

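PSAN, LHCB1.5, PSBW and PSBY are nuclear genes for proteins of the photosynthetic light reactions in Arabidopsis thaliana. They were followed in the psao mutant and in the wild type (WT). The 4 loci, AT5G64040 (PSAN), AT2G34420 (LHCB1.5, listed as LHB1B2 in RefSeq), AT2G30570 (PSBW) and AT1G67740 (PSBY), were taken from the probes whose platform annotation names exactly 1 gene. Each had 1 such probe and stood on 0 probes with several genes, so 4 genes are described, out of 692 probes with 1 gene and 3439 probes in all. The 6 psao arrays carried total RNA of plants without PSI-O, a small photosystem I protein, and the 6 WT arrays RNA of the unmutated line. Both lines were of ecotype Columbia 0. The psao allele, tissue, age, growth conditions and pooling of plants are not given in the sources used here. Nothing in the labels ties an array to a plant or culture of its own, so the p-values cover only the spread among these arrays, and that spread may be technical.

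Photosystem II and photosystem I work in series in the thylakoid membrane of the chloroplast. Photosystem II takes electrons from water, and photosystem I accepts them from the lumenal copper protein plastocyanin and passes them on to ferredoxin. Light-harvesting complex II (LHCII) feeds excitation mainly to photosystem II, and a mobile fraction attaches to photosystem I during state transitions. PSI-O lies in the membrane near PSI-L, on the side of photosystem I where this mobile LHCII docks. The comparison asks how transcripts of the light reactions stand when PSI-O is missing.

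The annotation covered few genes of these complexes. Of 59 nuclear loci listed for the light reactions, 4 had a probe with 1 gene, and they are the 4 described here. They were 1 of 12 photosystem I loci, 2 of 11 photosystem II loci and 1 of 14 LHCII loci. None of the 6 loci of light-harvesting complex I, the 14 of electron transport and ATP synthase or the 2 of LHCII phosphorylation had one. A further 5 listed loci stood on probes with several genes and were not read. PSAO had no probe with 1 gene, so its transcript was not analysed here.

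None of the 4 transcripts passed the test between psao and WT. The deposited intensity is relative to the brightest probe of its array, which stands at 100. Which probe that was differed: 4 different probes were the brightest of at least 1 array. Levels below are therefore log2 intensities after quantile normalization, which gives all arrays the same distribution. With limma, 949 of 3187 probes tested passed an adjusted p of 0.05, which is 29.8%, with 14.8% higher and 15% lower in psao, against 0 of the 4 genes. That background depended on the fit: limma called 60 of 2990 probes with neighbouring arrays 1 and 2, 3 and 4, and 5 and 6 averaged as couples and 330 of 3187 with couples as a random block. With intensities as deposited, 763 were higher and 223 lower in psao. Among the 189 probes with a mean level at or above that of PSBY, which include all 4 genes, 43.9% passed, 31 higher and 52 lower in psao. The median difference of the 4 genes was -0.13 log2 units and that of all probes tested -0.04.

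Arrays with neighbouring numbers resembled each other. Within a genotype, arrays 1 and 2 lay close together, as did 3 and 4, and 5 and 6. The term couple is used for such neighbours, which the data show and the labels do not name. For the 4 genes the 2 arrays of a couple differed by at most 0.40 log2 units. Couple means of one genotype spread over 0.22 to 1.29. WT arrays 1 and 2 also stood apart from the other arrays as a whole. Their deposited medians were 0.0995 and 0.0970, against 0.180 to 0.273 on the other 10 arrays, and 14.5% and 15.1% of their probes stood at 0, against 4.22% to 7.33%.

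**Figure D1:**
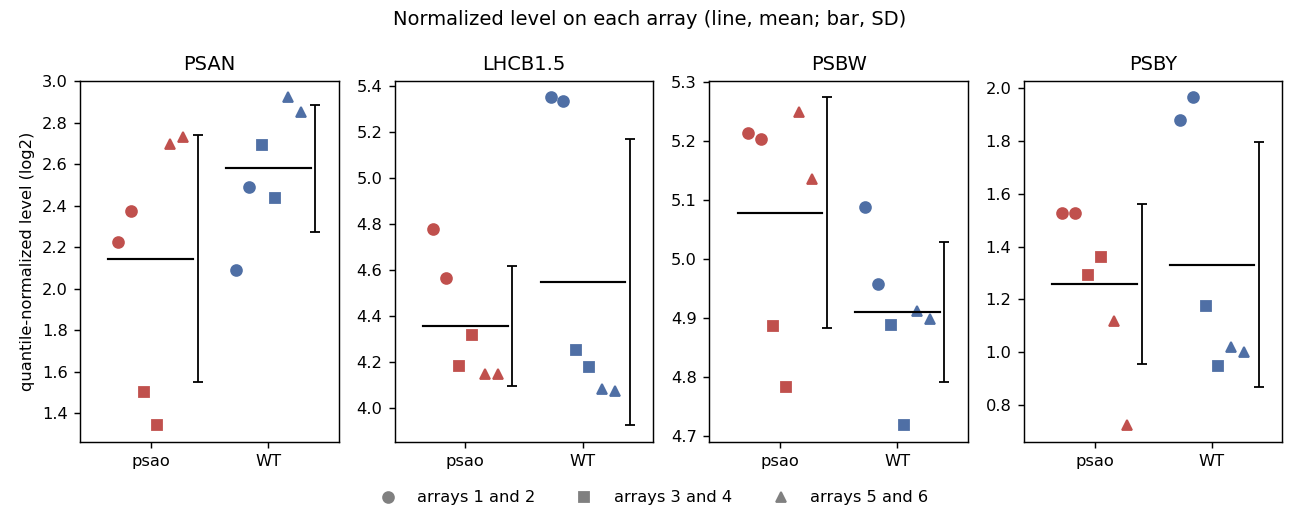
Quantile-normalized log2 level of PSAN, LHCB1.5, PSBW and PSBY on each of 6 psao and 6 WT arrays, with the mean as a line, the SD as a bar and the couple of arrays as the symbol; each panel has its own axis. PSAN is lowest on psao arrays 3 and 4, and LHCB1.5 and PSBY are highest on WT arrays 1 and 2.

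PSAN encodes PSI-N, an extrinsic subunit on the lumenal side of photosystem I that helps plastocyanin to react with the complex. Its deposited intensity had a lowest value, median and highest value of 2.81, 4.55 and 6.56 on psao arrays, against 4.40, 6.16 and 7.77 on WT arrays. The ranges overlapped. The normalized level was 2.15 ± 0.59 in psao and 2.58 ± 0.31 in WT (SD, n = 6 each), and psao was lower on 5 of 6 same-numbered pairs of arrays. The difference was -0.44 log2 units, or 0.740-fold, with a 95% interval of -1.03 to 0.16 (limma adjusted p = 0.244). That interval reaches from 0.491-fold to 1.11-fold and so covers a lower and an equal level alike.

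The low values of PSAN came from a single couple. psao arrays 3 and 4 stood at 1.504 and 1.34, while the other psao arrays lay between 2.22 and 2.73, inside the WT range of 2.09 to 2.92. Taken by couple, the difference was 0.0070 for arrays 1 and 2, -1.14 for arrays 3 and 4 and -0.17 for arrays 5 and 6. With arrays 1, 2, 5 and 6 alone it was -0.07 (limma adjusted p = 0.863). Without psao replicate 4 it was -0.27, and without psao replicate 3 it was -0.31. PSAN was the 1 gene of the 4 that passed under another scaling: with arrays centred on their medians it fell by 1.02 log2 units (limma adjusted p = 0.00433, and between 0.00433 and 0.863 in the 25 alternatives). With that centring 979 of 3187 probes passed as well.

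LHCB1.5 encodes an Lhcb1 protein, the main polypeptide of the trimeric LHCII antenna and one of the proteins phosphorylated in state transitions. In the RefSeq table of assembly TAIR10.1 the next locus is AT2G34430 (LHB1B1, also LHCB1.4). The Lhcb1 genes of Arabidopsis are related in sequence, and no probe sequence was used, so whether a sister gene adds signal is not known here. Deposited intensity had a lowest value, median and highest value of 16.2, 19.5 and 25.8 on psao arrays, against 17.8, 19.1 and 48.3 on WT arrays. The WT maximum belonged to array 1, and WT array 2 stood at 42.9, while the other 4 WT arrays all lay below 20.

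The normalized level of LHCB1.5 was 4.36 ± 0.26 in psao and 4.55 ± 0.62 in WT (SD, n = 6 each). The difference was -0.19 log2 units with a 95% interval of -0.79 to 0.41 (limma adjusted p = 0.6252). By couple it was -0.67 for arrays 1 and 2, 0.03 for arrays 3 and 4 and 0.07 for arrays 5 and 6. In arrays 3 to 6 the quantile-normalized level of LHCB1.5 was thus near equal in both genotypes. In deposited intensities the difference was -0.83 for arrays 1 and 2, -0.17 for arrays 3 and 4 and 0.07 for arrays 5 and 6. With arrays 3 to 6 alone, quantile normalized, the difference was 0.05, with an interval of -0.21 to 0.30 (limma adjusted p = 0.760). Without WT replicate 1 it was -0.029 and without WT replicate 2 -0.036. In both genotypes LHCB1.5 was highest on arrays 1 and 2, at 4.78 and 4.57 in psao and at 5.35 and 5.34 in WT.

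PSBW encodes a small membrane-spanning subunit of photosystem II that helps to hold photosystem II and LHCII together in supercomplexes. Its deposited intensity had a lowest value, median and highest value of 27.3, 34.1 and 43.2 on psao arrays, against 24.4, 28.2 and 35.4 on WT arrays. The ranges overlapped, and the 2 highest values were psao arrays 5 and 6, at 43.2 and 40.2. The normalized level was 5.08 ± 0.20 in psao and 4.91 ± 0.12 in WT (SD, n = 6 each). The difference was 0.17 log2 units, or 1.12-fold, with a 95% interval of -0.15 to 0.49 (limma adjusted p = 0.405). After quantile normalization it was positive in each couple, at 0.19, 0.03 and 0.29, and psao was higher on 5 of 6 same-numbered pairs. In deposited intensities the differences by couple were -0.03, 0.18 and 0.56. With arrays centred on their medians the difference over all arrays was -0.29.

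After quantile normalization of all arrays, PSBW had the lowest spread of the 4 transcripts. Its residual SD was 0.16 log2 units, against a median of 0.56 over all probes tested, and 1.54% of them had a lower one. The residual SD was 0.47 for PSAN, 0.48 for LHCB1.5 and 0.39 for PSBY. Among the 189 probes at least as bright as PSBY its median was 0.32. For PSBW the interval reached from 0.899-fold to 1.404-fold, the narrowest of the 4 in this fit. The fit takes the 6 arrays of a genotype as independent. With couples averaged the interval of PSBW was wider, at -0.50 to 0.84 log2 units. With arrays centred on their medians the interval of PSAN was narrower, at -1.495 to -0.55 against -0.81 to 0.23 for PSBW, and with arrays 3 to 6 alone that of LHCB1.5 was.

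PSBY encodes a precursor that is cut into a pair of small membrane proteins of photosystem II. Its deposited intensity had a lowest value, median and highest value of 1.73, 2.79 and 2.92 on psao arrays, against 1.86, 2.07 and 3.90 on WT arrays. The lowest value was psao array 6, and the highest were WT arrays 1 and 2, at 3.76 and 3.90. The normalized level was 1.26 ± 0.30 in psao and 1.33 ± 0.46 in WT (SD, n = 6 each). The difference was -0.07 log2 units with a 95% interval of -0.58 to 0.44 (limma adjusted p = 0.839), and psao was lower on 3 of 6 same-numbered pairs.

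The direction of PSBY differed between couples. It was -0.39 for arrays 1 and 2, 0.26 for arrays 3 and 4 and -0.09 for arrays 5 and 6. It turned to 0.041 without WT replicate 1, 0.058 without WT replicate 2 and 0.034 without psao replicate 6. With arrays 3 to 6 alone it was 0.10 (limma adjusted p = 0.669).

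**Figure D2:**
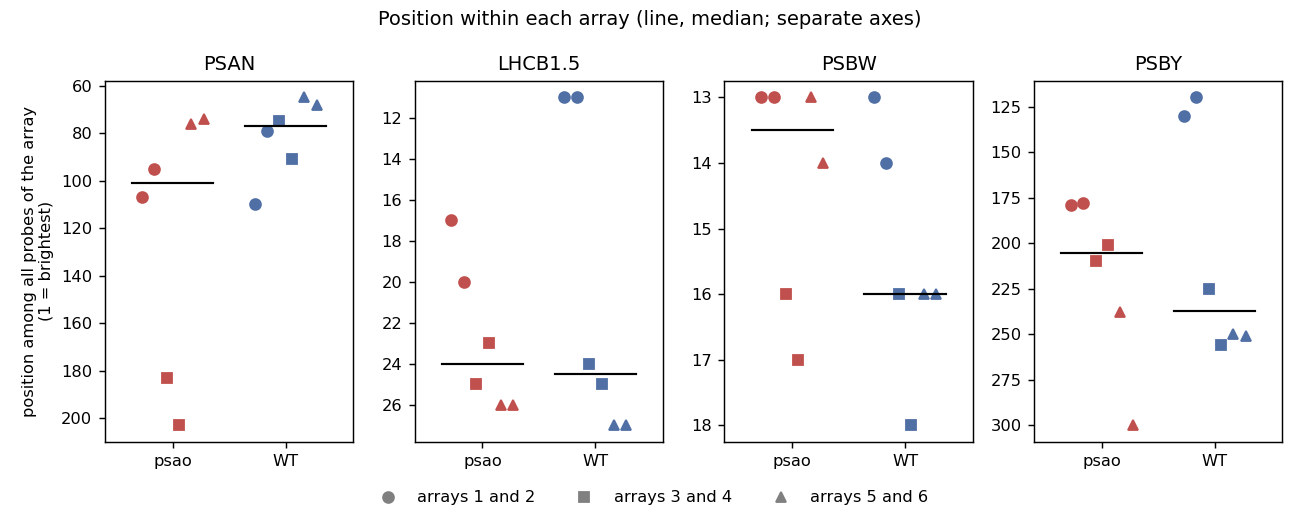
Position of each probe among all 3439 probes of its array, with 1 the brightest at the top and the median as a line, on 6 psao and 6 WT arrays; each panel has its own axis. PSBW stays between positions 13 and 18 on all 12 arrays, while PSAN drops to 183 and 203 on psao arrays 3 and 4.

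All 4 probes were among the brightest of every array, and their positions do not depend on the scaling between arrays. A position reflects the probe as well as the transcript, so positions were compared between arrays and not between genes. PSBW held positions 13 to 17 in psao and 13 to 18 in WT, and position 2 to 5 among the probes with 1 gene. LHCB1.5 held positions 17 to 26 in psao and 11 to 27 in WT, and was the brightest probe with 1 gene on WT arrays 1 and 2. PSAN held positions 74 to 203 in psao and 65 to 110 in WT. PSBY held positions 178 to 300 in psao and 120 to 256 in WT.

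In percentiles of the array, PSAN averaged 96.5 ± 1.63 in psao and 97.7 ± 0.487 in WT (SD, n = 6 each). The difference was -1.21 percentile points (exact two-sided permutation p = 0.123, adjusted p = 0.228 over all probes tested). LHCB1.5 averaged 99.4 in both genotypes, with a difference of -0.058 points (exact permutation adjusted p = 0.718). PSBW averaged 99.6 in both, with a difference of 0.034 points (exact permutation adjusted p = 0.500). Percentiles move little near the top of an array. LHCB1.5 stood at 99.7 on WT array 1 and 99.2 on WT array 6, with deposited intensities of 48.3 and 17.8. Near-equal averages of LHCB1.5 and PSBW thus do not show equal levels. PSBY averaged 93.7 in psao and 94.1 in WT, with a difference of -0.36 points (exact permutation adjusted p = 0.796). At an adjusted p under 0.05 the same exact test called 31.8% of all probes tested and 0 of these 4. The unadjusted p-values of the 4 were also above 0.05.

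**Figure D3:**
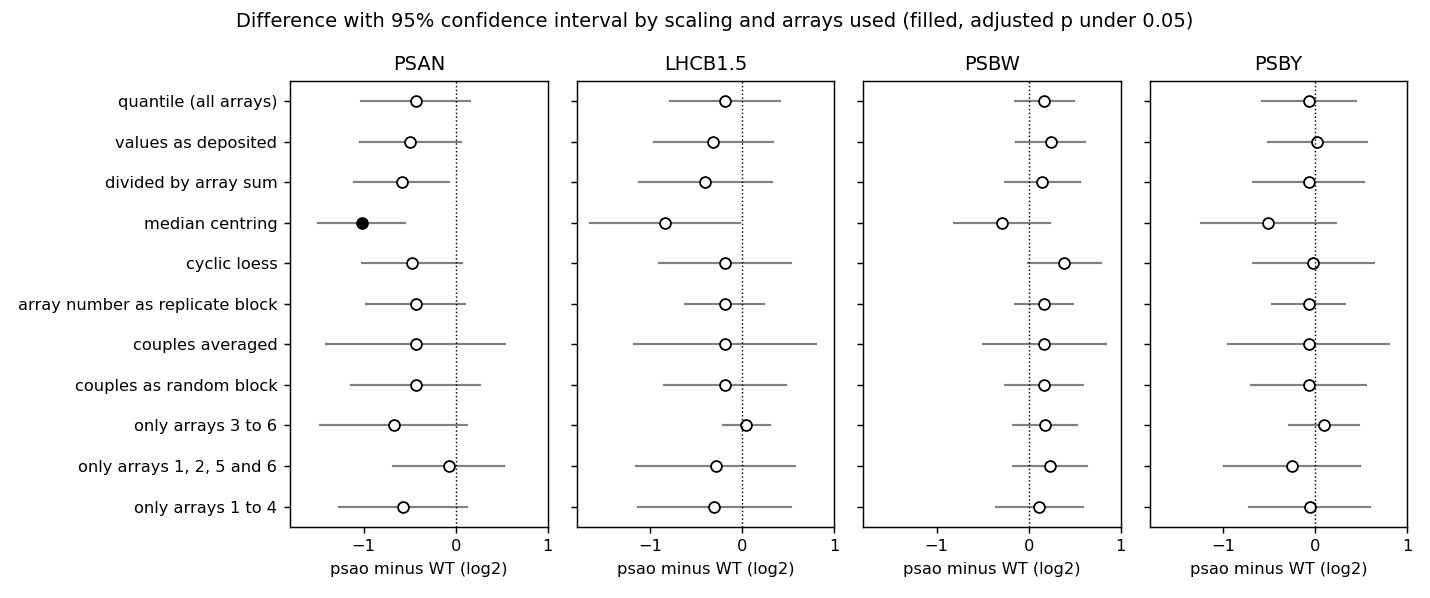
Difference between psao and WT in log2 units with its 95% confidence interval for each gene, from quantile-normalized levels of all arrays (top row) and from 10 alternatives; filled points have a limma adjusted p under 0.05. The 1 filled point is PSAN with arrays centred on their medians, at -1.02.

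The 4 differences depended on how the arrays were scaled. With intensities as deposited, the median of all probes tested stood 0.43 log2 units higher in psao. Relative to that median PSAN stood at -0.93, LHCB1.5 at -0.74, PSBY at -0.41 and PSBW at -0.19. The deposited differences themselves were -0.49, -0.31, 0.02 and 0.24 for PSAN, LHCB1.5, PSBY and PSBW, and none passed (limma adjusted p of 0.155 to 0.961). Relative to that median all 4 values were thus negative, whereas after quantile normalization that of PSBW was positive. The share of other bright probes below that median was not counted, so the sign cannot be called particular to these genes. With arrays centred on their medians LHCB1.5 differed by -0.84 and PSBY by -0.51, and neither passed (limma adjusted p of 0.109 and 0.277). The part of the low medians of WT arrays 1 and 2 in these values was not tested. In arrays 3 to 6 alone, quantile normalized, the differences were -0.67, 0.05, 0.17 and 0.10 for PSAN, LHCB1.5, PSBW and PSBY. Both the scaling and the arrays differ there, so these values do not show what WT arrays 1 and 2 contribute.

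**Figure D4:**
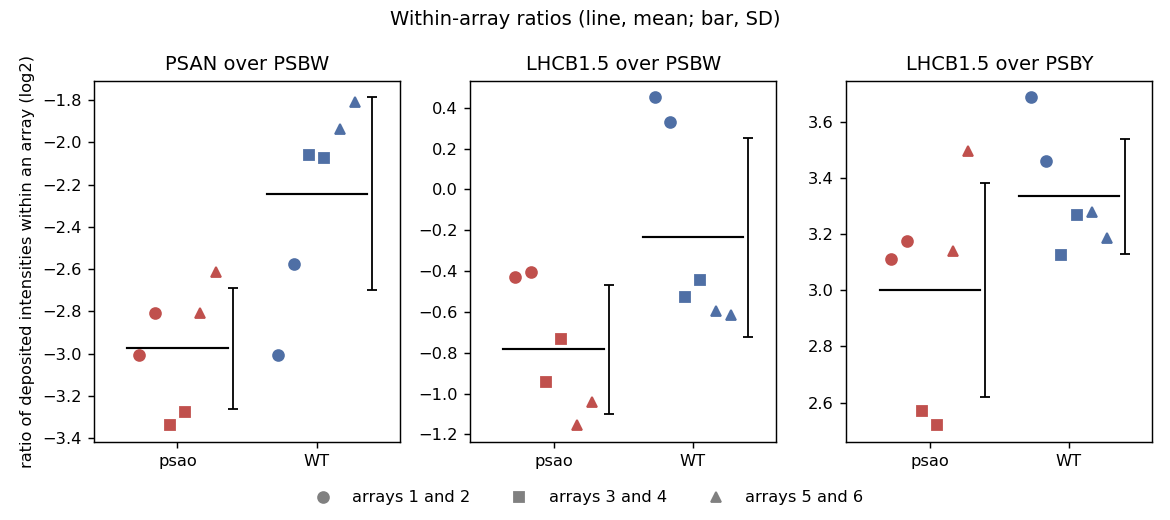
Log2 ratio of the deposited intensities of gene pairs within an array on 6 psao and 6 WT arrays, with the mean as a line, the SD as a bar and the couple as the symbol; each panel has its own axis. LHCB1.5 over PSBW is lower on the psao array of each same-numbered pair, although the ranges of the genotypes overlap.

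Ratios of genes within an array are free of any factor that applies to the whole array. The size of such a ratio depends on the probes, so its difference between arrays was read and no test was made. All 6 pairs of the 4 genes were computed, and in all 6 the ranges of psao and WT overlapped. In these deposited intensities LHCB1.5 over PSBW was the pair with the same direction throughout. It was lower in psao on 6 of 6 same-numbered pairs of arrays. How many other pairs of probes do so was not counted. The ratio lay between 44.9% and 75.6% in psao and between 65.3% and 137% in WT. Its log2 difference was -0.55, and by couple -0.81, -0.35 and -0.49. After quantile normalization LHCB1.5 and PSBW differed between psao and WT by 0.034 and 0.031 for arrays 3 and 4. The lower ratio of that couple was thus not seen after quantile normalization, which does not apply a single factor to a whole array.

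PSAN over PSBW lay between 9.88% and 16.3% in psao and between 12.4% and 28.6% in WT. It was lower in psao on 5 of 6 same-numbered pairs, with a log2 difference of -0.73. By couple the difference was -0.12, -1.24 and -0.84. LHCB1.5 over PSBY differed by -0.33, with -0.43, -0.65 and 0.09 by couple. In deposited intensities PSAN and LHCB1.5 thus stood lower against PSBW on most psao arrays than on the same-numbered WT array. No pair separated the genotypes fully. Over all probes tested, the normalized levels of single probes did not overlap in 19.7%, against 0 of these 4 genes.

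**Figure D5:**
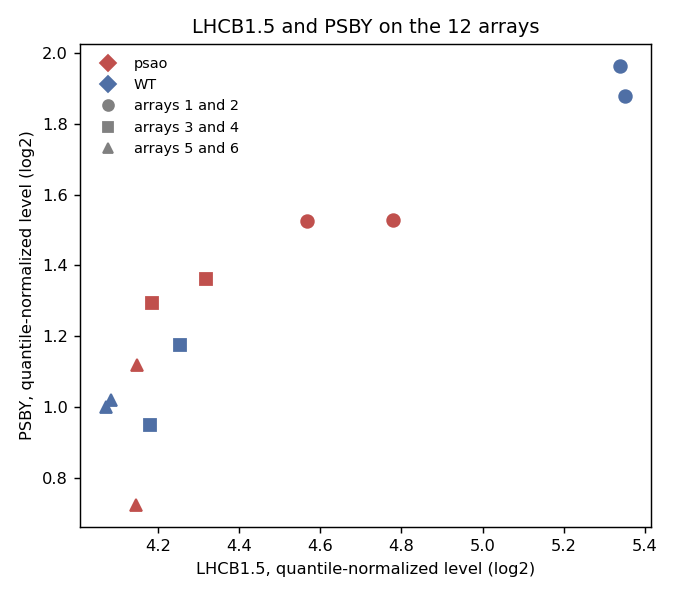
Quantile-normalized log2 levels of LHCB1.5 (x axis) and PSBY (y axis) on the 12 arrays, coloured by genotype, with the couple as the symbol. Both are highest on WT arrays 1 and 2 and next highest on psao arrays 1 and 2.

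LHCB1.5 and PSBY varied together over the arrays. Across the 12 arrays their normalized levels had a Pearson r of 0.920 and a Spearman rho of 0.909. Without WT arrays 1 and 2, the 2 arrays farthest from the median of LHCB1.5, r was 0.803 over 10 arrays. The relation depended on the scaling. With log2 intensities as deposited, r was 0.761 over 12 arrays and 0.313 over those 10, and in arrays 3 to 6 of both genotypes it was -0.769. Arrays of a couple are not independent, and the points share the scaling of their array, so these values are a description.

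The other pairs had a lower r. PSAN and PSBW had an r of 0.242 over the 12 arrays and of 0.6004 after the mean of each genotype was taken off. LHCB1.5 and PSBW had 0.270 and 0.443 in the same way, and PSAN and PSBY -0.384 and -0.484. Among 480 other probes with 1 gene and a value on all 12 arrays, LHCB1.5 was itself the one most like PSBY. Next to PSBY came AT2G26110 (r = 0.912) and AT1G34270 (r = 0.890). Most like LHCB1.5 were GH9B8 of the glycosyl hydrolase 9 family (r = 0.945), AT1G34270 (r = 0.942) and AT2G47830 (r = 0.935). Without WT arrays 1 and 2 these 3 stood at 0.904, 0.772 and 0.693.

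Most like PSAN were AT1G65370 (r = 0.826), GH9B11 (r = 0.818) and AT1G67930 (r = 0.791). Without psao arrays 3 and 4, where PSAN was lowest, these were 0.642, 0.516 and 0.742. Most like PSBW were AT2G26680 (r = 0.848), PAC (r = 0.786) and AT2G19870 (r = 0.773). PAC, PALE CRESS, is a chloroplast protein needed for chloroplast development. Counting each once and leaving out LHCB1.5, these 10 were chosen for likeness to genes that did not pass. Of them 0 passed the test between psao and WT, against 176 of 628 probes with 1 gene. Their limma adjusted p-values ran from 0.0577 for AT2G26680 to 0.994 for AT1G34270. The choice itself favoured probes that do not pass, so nothing is read from this count.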

How the data were processed

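Total RNA had been measured on arrays, 6 of psao and 6 of WT, grouped and numbered 1 to 6 by the sample titles. The deposited table holds 1 intensity per probe and array, and from its values the authors had scaled each array to its brightest probe at 100. Array manufacture, labelling, background treatment and any averaging of spots are not given in the sources used here. No background level could be read, and the number of arrays limits the precision. Probe genes came from the platform annotation: 692 of 3439 probes had 1 gene, 870 several, and 1877 were not listed. Symbols came from RefSeq (TAIR10.1), where 690 of the 692 matched. The check of the psao genotype by the PSAO transcript could not be made, because no probe with 1 gene is paired with it. Sequences of the probes, genes and proteins were not used here.

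Zeros were set missing, log2 intensities were quantile normalized over all probes, and 3187 probes with at least 4 values per group were fitted with limma 3.58.1 in R 4.3.3 (lmFit and eBayes, psao minus WT, two-sided). P-values were Benjamini-Hochberg adjusted over all probes tested, with a threshold of 0.05. Percentiles within an array, with zeros lowest, were compared over arrays with an exact permutation test on every probe tested. The 4 genes, the lists and the tests were chosen with earlier results of these data known. The genes named as alike were the 3 other probes with 1 gene and the highest Pearson r per member. Both tests were tested on simulated data with independent noise on each array. That simulation leaves out the likeness of arrays within a couple, so it does not cover the p-values under such likeness.

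Deviations from the group means of same-numbered psao and WT arrays correlated across probes with r of 0.144 to 0.239 over 6 pairs, which met the criterion for pairing; both tests are unpaired, and the number enters as a block among the alternatives and in counts of same-numbered pairs. Alternatives covered scaling, zeros, dim probes, array weights, blocks for the array number and for couples, couples averaged, and arrays left out. Dividing each array by its sum was added after seeing the data.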

Additional observations from a re-analysis of the deposited data

How the results depend on the processing

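Over 25 alternatives, PSAN kept its sign throughout, but these are not separate checks. Its difference cannot change with dim probes left out, the array number as a block, couples averaged or couples as a random block. Another 12 alternatives leave out 1 array each. For the couple of arrays 1 and 2 the difference of PSAN was 0.0070. With arrays centred on their medians PSAN differed by -1.02 and passed. In that setting 1 of the 4 genes and 979 of 3187 probes were called. PSBW turned to -0.29 under that centring. LHCB1.5 turned to 0.0070 with array weights and 0.047 with arrays 3 to 6 alone, and PSBY to 0.018 and 0.096 in these and to 0.019 as deposited. Leaving out each array in turn gave -0.55 to -0.27 for PSAN, -0.28 to -0.029 for LHCB1.5, 0.12 to 0.23 for PSBW and -0.15 to 0.058 for PSBY, with 0 of the 4 called and 786 to 939 probes called. The limma count of called probes, 949, was 60 with couples averaged, 330 with couples as a random block, 602 with arrays 1, 2, 5 and 6 and 431 with arrays 1 to 4. Of called probes 49.7% were higher in psao, against 77.4% as deposited, 71.9% divided by array sum and 85% with couples averaged. With the array number as a replicate block the 4 differences were unchanged by construction, PSAN had a limma adjusted p of 0.176, 1090 probes were called and no call of the 4 changed. The cause of these shifts was not tested.

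In percentiles, PSBW turned to -0.096 among probes with 1 gene, and LHCB1.5 to 0.022 and PSBY to 0.24 with arrays 3 to 6. Leaving out each array gave -1.50 to -0.75 for PSAN, -0.094 to -0.00097 for LHCB1.5, 0.019 to 0.049 for PSBW and -0.65 to 0.14 for PSBY. With couples averaged the smallest p this exact test allows is 0.1, with 4 arrays per group 0.0286 and with same-numbered differences as a replicate block 0.0312. There it called 0 probes, so those settings say nothing on stability.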

Other observations

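Against PSBY, the ratios of the other genes within an array moved with the couples. The log2 ratio of PSAN over PSBY differed between psao and WT by 0.26 for arrays 1 and 2, -1.54 for arrays 3 and 4 and -0.26 for arrays 5 and 6. PSBW over PSBY differed by 0.38, -0.30 and 0.58 in the 3 couples. PSAN over LHCB1.5 lay between 16.8% and 33.6% in psao and between 9.11% and 43.7% in WT, and its lowest values were WT arrays 1 and 2, at 9.11% and 13.3%.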
